A study of Mus musculus with 8 samples.

Results

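The genes described here are 9 genes of the bone morphogenetic protein (BMP) pathway, Id1, Id2, Id3, Id4, Bmp4, Smad6, Bambi, Msx1 and Msx2, of 24921 genes counted in mouse V6.5 embryonic stem (ES) cells. They were chosen as a list of a ligand, feedback genes and target genes, with earlier results of these data known. Each value is the sum of the reads of a gene's RefSeq accessions. V6.5 is a C57BL/6-129 ES cell line, and all cells were cultured in 2i medium, which contains inhibitors of MEK and GSK3. RNA-seq was done on 8 libraries, 2 in each of 4 groups. In the first pair of groups, V6.5 cells that carry OCT4 fused to FKBP (OCT4-FKBP) were treated for 24 h with a dTAG compound, dTag9, or with DMSO. FKBP is a degradation tag: the compound links it to a ubiquitin ligase, so the tagged OCT4 can be broken down. In the second pair, parental V6.5 cells without the tag (WT) had been without LIF for 5 days or were kept in normal LIF. Untagged cells with dTAG were not among the samples used here, so loss of OCT4 and any other action of the compound cannot be told apart. The labels do not say whether the 2 libraries of a group came from separate cultures or clones, so the p-values rest on library-to-library spread, and that spread may be purely technical.

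BMP ligands bind pairs of type I and type II receptor kinases, which phosphorylate SMAD1, SMAD5 and SMAD9. These enter the nucleus with SMAD4 and switch on target genes, the ID genes among the best known. ID proteins have a helix-loop-helix domain but no DNA-binding region, and they hold E proteins in dimers that cannot bind DNA. In mouse ES cells, BMP4 together with LIF is known to support self-renewal, in part through ID genes.

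The libraries held 7221451 to 11447468 counted reads. Levels are given in CPM (counts scaled to a common library total by edgeR). Tests are edgeR quasi-likelihood tests in 1 fit of all libraries, and p-values are Benjamini-Hochberg adjusted over the 10311 genes that passed the filter on low counts, with calls at 0.05. The ES cell markers were present in every library. Their summed level was 2560 and 2577 CPM with dTAG, against 7669 and 7548 CPM in DMSO, and 2344 and 2308 CPM without LIF, against 7772 and 7870 CPM with LIF. Of the 11 markers, 10 fell with dTAG, where 20.3% of all tested genes fell. Without LIF 8 fell and 2 rose, where 34.4% of all tested genes fell and 34.0% rose. Pou5f1, the gene of OCT4, was at 84.5 and 90.1 CPM with dTAG, against 77.4 and 77.7 CPM in DMSO (log2 fold change 0.17, SE 0.10, edgeR adjusted p = 0.18). It was at 205 and 170 CPM without LIF, against 425 and 336 CPM with LIF. It has 2 accessions, so these reads cover only sequence particular to them. In the tagged line in DMSO it was 4.91-fold lower than in the parental line with LIF (edgeR adjusted p = 3.4e-16). As dTAG removes protein and RNA was counted, Pou5f1 does not check the loss of OCT4.

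Of the 9 genes, 7 passed the filter, and each of these has a single accession. In the dTAG libraries 5 of the 7 changed, where 40.5% of all tested genes did, and 4 of them, Id2, Id4, Msx1 and Msx2, rose over DMSO, where 20.1% of all tested genes rose. Id3 fell, where 20.3% of all tested genes fell. Smad6 and Bambi did not pass. Without LIF 5 of the 7 changed, where 68.4% of all tested genes did. Id2, Id3 and Msx2 rose, where 34.0% of all tested genes rose over LIF, and Id4 and Smad6 fell, where 34.4% fell. Msx1 and Bambi did not pass in that comparison. The median log2 fold change of the 7 genes was 0.66 with dTAG and -0.01 without LIF, beside 0.00 and -0.02 over all tested genes. The libraries of dTAG and DMSO did not overlap for all 7 genes, and those without and with LIF did not overlap for 6. Over all tested genes the libraries did not overlap for 70.2% and 81.5%, so that count alone sets the 7 genes little apart.

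**Figure D1:**
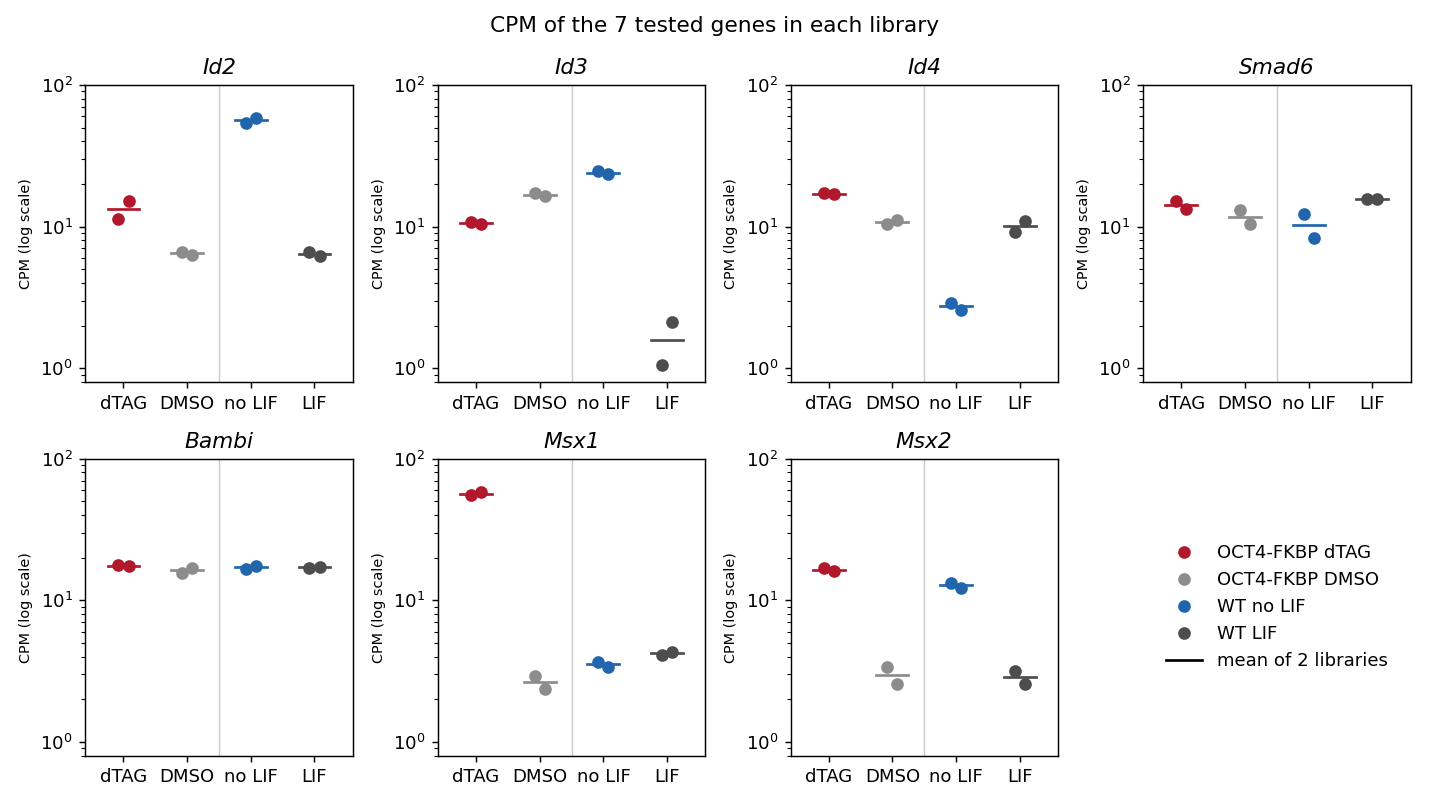
CPM on a log scale in each of the 8 libraries for the 7 tested genes; points are libraries and bars are the means of 2 libraries. Msx1 was at 55.5 and 57.8 CPM with dTAG and under 5 CPM in every other library, Msx2 was high both with dTAG and without LIF, and Bambi stayed between 15.6 and 17.7 CPM.

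The ligand gene Bmp4 and the target gene Id1 could not be tested. Bmp4 had 26 reads in total, 8 with dTAG, 10 in DMSO, 4 without LIF and 4 with LIF, and Id1 had 10 reads in total. Both genes have 2 accessions in the tables, and a read that falls on more than 1 accession can be set aside as ambiguous. Over the 8 libraries 42.5% of counted plus ambiguous reads were ambiguous. They were not split into reads shared by accessions of 1 gene and reads over different genes, and how overlaps were counted is not stated in the labels. No level of Bmp4 or Id1 RNA is read from these counts. With every gene kept whatever its count, neither passed in the dTAG comparison (Bmp4 log2 fold change -0.28, edgeR adjusted p = 0.93; Id1 2.75, edgeR adjusted p = 0.21).

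The 3 ID genes that could be tested each followed a course of their own. Id2 was at 11.4 and 15.2 CPM with dTAG, against 6.59 and 6.33 CPM in DMSO. It was at 53.9 and 58.4 CPM without LIF, against 6.61 and 6.23 CPM with LIF. Both treated groups lay above their controls, and the 2 control groups shared a level. The rise was 2.06-fold with dTAG (log2 fold change 1.04, SE 0.17, edgeR adjusted p = 1.9e-05). Without LIF it was 8.67-fold (log2 fold change 3.12, SE 0.14, edgeR adjusted p = 6.4e-17).

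Id3 was at 10.7 and 10.4 CPM with dTAG, against 17.2 and 16.4 CPM in DMSO. It was at 24.6 and 23.4 CPM without LIF, against 1.06 and 2.11 CPM with LIF. The parental cells with LIF thus stood well below the other 3 groups, with only 12 and 18 reads of Id3 in their libraries. With dTAG, Id3 was 1.59-fold lower than in DMSO (log2 fold change -0.67, SE 0.15, edgeR adjusted p = 0.00093). Without LIF it was 15.8-fold higher than with LIF (log2 fold change 3.98, SE 0.21, edgeR adjusted p = 3.4e-15).

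Id4, the family member best known from neural progenitors, was at 17.3 and 16.9 CPM with dTAG, against 10.4 and 11.2 CPM in DMSO. It was at 2.9 and 2.59 CPM without LIF, against 9.08 and 11 CPM with LIF. The libraries without LIF were the lowest and those with dTAG the highest, and the control groups overlapped. Id4 rose 1.58-fold with dTAG (log2 fold change 0.66, SE 0.15, edgeR adjusted p = 0.00086). It was 3.58-fold lower without LIF (log2 fold change -1.84, SE 0.21, edgeR adjusted p = 2.1e-08).

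Levels of different genes can be set side by side per length, as CPM per kb of transcript, with lengths of 1270 bases for Id2, 1278 for Id3 and 3849 for Id4 from GENCODE. The sum of Id2, Id3 and Id4 per kb was 21.8 and 24.5 with dTAG, against 21.4 and 20.8 in DMSO. It was 62.4 and 65 without LIF, against 8.4 and 9.42 with LIF. With dTAG the sum stayed near that in DMSO while its makeup differed. Id3 made up 38.4% and 33.2% of the sum with dTAG, against 63.1% and 62.1% in DMSO. Id2 made up 41.0% and 48.9% with dTAG, against 24.3% and 24.0% in DMSO. Without LIF, Id4 was down to 1.21% and 1.03% of the sum, against 28.1% and 30.5% with LIF. Id1 is not in this sum. These shares are descriptions of the libraries, with no test.

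**Figure D2:**
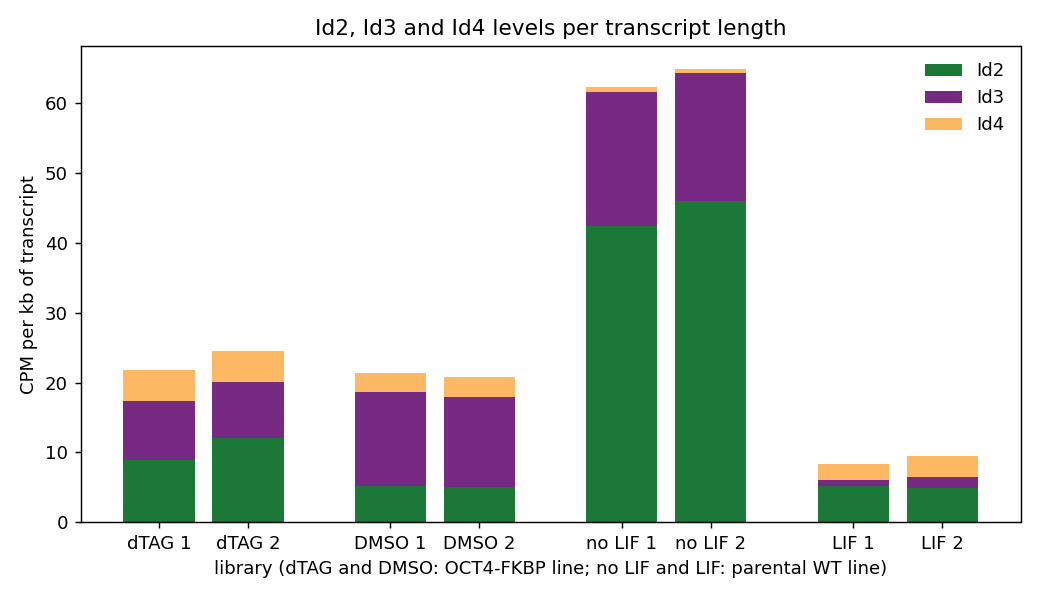
Levels of Id2, Id3 and Id4 in CPM per kb of transcript, stacked for each library from a base of 0. The libraries without LIF reach 62.4 and 65, those with LIF 8.4 and 9.42, and the dTAG and DMSO bars are of like height with less Id3 and more Id2 in dTAG.

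The promoters of these 3 genes are shown because the genes belong to 1 family and yet moved in different directions. The windows are the 250 bases before the RefSeq start (GRCm38.p6), 5′ to 3′ on the gene's strand. Capitals mark GGCGCC, the core of the BMP response element, and GTCT or its complement AGAC, the SMAD binding element; both strands were searched and no marked matches overlap. They lie at chr12:25096093-25096342 on the minus strand for Id2, chr4:136143572-136143821 on the plus strand for Id3, chr13:48260866-48261115 on the plus strand for Id4.
Id2: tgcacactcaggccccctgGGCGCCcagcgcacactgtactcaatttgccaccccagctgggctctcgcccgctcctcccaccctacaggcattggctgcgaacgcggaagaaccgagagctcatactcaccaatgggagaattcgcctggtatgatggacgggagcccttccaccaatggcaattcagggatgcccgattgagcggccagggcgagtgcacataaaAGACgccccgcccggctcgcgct
Id3: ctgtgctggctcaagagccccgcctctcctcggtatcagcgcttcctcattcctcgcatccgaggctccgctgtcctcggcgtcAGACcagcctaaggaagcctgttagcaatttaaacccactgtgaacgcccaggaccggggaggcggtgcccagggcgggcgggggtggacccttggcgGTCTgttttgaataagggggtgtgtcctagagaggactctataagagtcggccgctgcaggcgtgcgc
Id4: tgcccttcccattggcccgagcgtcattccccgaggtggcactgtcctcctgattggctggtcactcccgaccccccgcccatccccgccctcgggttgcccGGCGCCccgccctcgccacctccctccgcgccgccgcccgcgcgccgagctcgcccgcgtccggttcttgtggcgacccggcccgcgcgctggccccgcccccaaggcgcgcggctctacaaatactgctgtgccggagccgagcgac
GGCGCC stood in the Id2 and Id4 windows, and in 9.59% of all 32851 promoter windows of that length. GTCT stood once in the Id2 window, 2 times in that of Id3 and 0 times in that of Id4, and in 82.9% of all windows. A TATAAA box was found in none of the 3 windows, and in 12.4% of all windows. Whether the matches bear on the changes of the ID genes was not tested. Of the 9 genes, 7 matched the promoter table, all but Id1 and Bambi.

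Msx1 and Msx2 encode homeobox repressors that BMP signalling switches on in limb, tooth and neural crest. Msx1 had the largest fold change of the 7 genes in the dTAG comparison. It was at 55.5 and 57.8 CPM with dTAG, against 2.94 and 2.37 CPM in DMSO, and at 3.67 and 3.40 CPM without LIF, against 4.14 and 4.35 CPM with LIF. The dTAG libraries stood alone, and the other 3 groups were all under 5 CPM. The rise with dTAG was 21.7-fold (log2 fold change 4.44, SE 0.16, edgeR adjusted p = 4.2e-18). Without LIF the log2 fold change was -0.25 (SE 0.23, edgeR adjusted p = 0.35).

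Msx2 was at 16.9 and 16.1 CPM with dTAG, against 3.37 and 2.55 CPM in DMSO. It was at 13.2 and 12.3 CPM without LIF, against 3.17 and 2.58 CPM with LIF. Both treated groups were high, and both control groups were low and overlapped. The rise was 5.72-fold with dTAG (log2 fold change 2.52, SE 0.20, edgeR adjusted p = 6.2e-11) and 4.38-fold without LIF (log2 fold change 2.13, SE 0.20, edgeR adjusted p = 6.0e-10). The promoter windows of the pair, marked as above, are given because both genes rose with dTAG and only Msx2 passed the test without LIF. They lie at chr5:37824586-37824835 on the minus strand for Msx1, chr13:53472781-53473030 on the minus strand for Msx2.
Msx1: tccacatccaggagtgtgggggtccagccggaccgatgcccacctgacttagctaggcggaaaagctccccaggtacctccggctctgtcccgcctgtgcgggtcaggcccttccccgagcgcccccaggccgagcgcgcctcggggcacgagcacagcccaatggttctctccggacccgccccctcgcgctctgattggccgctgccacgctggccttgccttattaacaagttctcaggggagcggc
Msx2: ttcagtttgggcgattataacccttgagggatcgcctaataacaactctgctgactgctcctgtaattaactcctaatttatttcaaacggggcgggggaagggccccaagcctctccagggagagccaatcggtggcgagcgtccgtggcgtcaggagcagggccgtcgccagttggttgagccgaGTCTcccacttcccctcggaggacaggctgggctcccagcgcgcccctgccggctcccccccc
Neither window holds GGCGCC or TATAAA. The Msx2 window has 1 GTCT and that of Msx1 has 0, and 82.9% of all windows hold this match. Whether the matches bear on the changes of the pair was not tested.

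The feedback genes Bambi and Smad6 had the smallest fold changes of the 7 with dTAG. Bambi encodes a membrane pseudoreceptor that lacks a kinase domain and dampens BMP and TGF-beta signals. It was at 17.7 and 17.4 CPM with dTAG, against 15.6 and 16.9 CPM in DMSO, and at 16.7 and 17.4 CPM without LIF, against 17.0 and 17.2 CPM with LIF. Its log2 fold change was 0.10 with dTAG (SE 0.13, edgeR adjusted p = 0.55). Without LIF it was -0.01 (SE 0.13, edgeR adjusted p = 0.97). The libraries of all 4 groups lay within 15.6 to 17.7 CPM.

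Smad6 encodes an inhibitory SMAD that blocks receptor-activated SMADs. It was at 15.1 and 13.3 CPM with dTAG, against 13 and 10.5 CPM in DMSO, a log2 fold change of 0.29 (SE 0.17, edgeR adjusted p = 0.17). It was at 12.3 and 8.31 CPM without LIF, against 15.6 CPM in both libraries with LIF. The fall without LIF was 1.47-fold (log2 fold change -0.55, SE 0.16, edgeR adjusted p = 0.0043). The 2 libraries without LIF differed more from each other than those of the other groups. Without the second of them the call was lost (log2 fold change -0.33, edgeR adjusted p = 0.096).

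**Figure D3:**
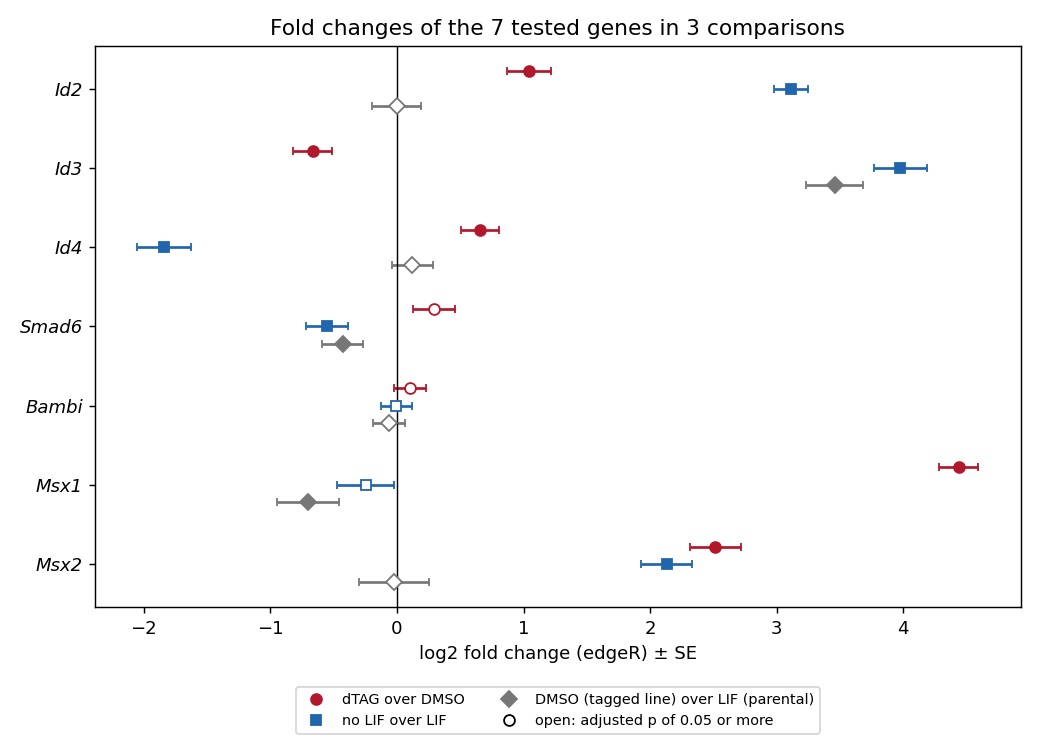
edgeR log2 fold changes with standard errors for the 7 tested genes, for dTAG over DMSO, no LIF over LIF, and the tagged line in DMSO over the parental line with LIF; open symbols did not pass an adjusted p of 0.05. Msx2 and Id2 lie to the right in both treatments, Id3 and Id4 lie on opposite sides of 0, and Id3 also differs between the 2 control groups.

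The responses were then compared directly, as the log2 fold change with dTAG minus that without LIF. The 2 comparisons share no library. Of the 7 genes, 5 passed, where 55.0% of all tested genes did. The difference was negative for Id3 (-4.65, SE 0.27, edgeR adjusted p = 6.7e-14) and Id2 (-2.07, SE 0.24, edgeR adjusted p = 3.4e-08). It was positive for Msx1 (4.69, SE 0.30, edgeR adjusted p = 4.2e-13), Id4 (2.50, SE 0.26, edgeR adjusted p = 7.6e-09) and Smad6 (0.85, SE 0.24, edgeR adjusted p = 0.0035). Id3 and Id4 thus had opposite directions in the 2 treatments, while for Id2 the direction was shared and the size differed. For Msx2 the difference was 0.39 (SE 0.31, edgeR adjusted p = 0.31) and for Bambi 0.11 (SE 0.18, edgeR adjusted p = 0.63). The treatments lasted 24 h and 5 days, so time and treatment cannot be told apart in this difference, nor can the line.

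The tagged line in DMSO was also set against the parental line with LIF. Of the 7 genes 3 differed, where 40.7% of all tested genes did. Id3 was 11-fold higher in the tagged line in DMSO (log2 fold change 3.46, SE 0.22, edgeR adjusted p = 3.9e-12), where 18.5% of all tested genes were higher. Its level there, 16.8 ± 0.572 CPM, compares with 1.59 ± 0.747 CPM in parental cells with LIF (SD, n = 2 each). The other ID genes did not pass, with log2 fold changes of 0.00 for Id2 (SE 0.20, edgeR adjusted p = 1) and 0.12 for Id4 (SE 0.16, edgeR adjusted p = 0.59). Msx1 was 1.63-fold lower in the tagged line (edgeR adjusted p = 0.023) and Smad6 1.35-fold lower (edgeR adjusted p = 0.037), where 22.1% of all tested genes were lower. Both of these calls were lost with DESeq2 (adjusted p = 0.079 for Msx1 and 0.20 for Smad6). Without OCT4-FKBP DMSO replicate 2 both were lost as well (log2 fold changes -0.49 and -0.23; edgeR adjusted p = 0.30 and 0.44), and also without WT LIF replicate 1 (-0.74 and -0.43; edgeR adjusted p = 0.065 and 0.083) and without WT LIF replicate 2 (-0.64 and -0.40; edgeR adjusted p = 0.081 and 0.079). Without either dTAG library Smad6 alone was lost (-0.40, edgeR adjusted p = 0.051). The libraries of the 2 groups did not overlap for 4 of the 7 genes, beside 67.5% of all tested genes. The line, the tag, the clone and the DMSO cannot be told apart in this comparison, and it shares its libraries with the other comparisons.

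Per kb of transcript, the order of the 7 genes differed between groups. With dTAG, Msx1 came first at 29.3 CPM per kb, then Id2 at 10.5 and Id3 at 8.27, and Bambi was last at 3.46. In DMSO, Id3 led at 13.2 CPM per kb, followed by Id2 at 5.09, and Msx1 at 1.37 and Msx2 at 1.21 closed the order with overlapping libraries. Without LIF, Id2 led at 44.2 CPM per kb, ahead of Id3 at 18.8 and Msx2 at 5.19, and Id4 was last at 0.713. With LIF, Smad6 at 5.26 and Id2 at 5.06 CPM per kb were at the top, and Id3 at 1.24 and Msx2 at 1.17 at the bottom, with overlapping libraries. The reads covered 1 accession a gene, and mapping along the transcript was not corrected for.

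The pathway was then taken from lists by role, which also hold genes described above: Bmp4, untested, among the ligands, Smad6 among the SMAD genes, and Smad6 again among the targets with the other 6 tested genes. Smad7 is on the SMAD and target lists too. The lists were also written with earlier results of these data known. The counts with dTAG are to be read against 20.1% of all tested genes that rose and 20.3% that fell, and with so few genes in a list, counts of 1 or 2 lie near those shares. Of 15 ligand genes 5 could be tested, and 1 rose and 2 fell with dTAG. Their median log2 fold change, -0.89, beside 0.00 over all tested genes, is the value of Bmp2, which rests on 2 reads with dTAG and 4 in DMSO (ratio 0.509, exact 95% interval 0.0461 to 3.55; edgeR adjusted p = 0.55) and so says little about the ligand genes as a group. Gdf3, a ligand of the TGF-beta family that ES cells are known to express, was at 128 ± 2.14 CPM with dTAG and 369 ± 9.42 CPM in DMSO (SD, n = 2 each), 2.87-fold lower (edgeR adjusted p = 6.3e-17). Bmp7, a BMP ligand, was 1.34-fold lower (edgeR adjusted p = 0.015). Of 11 receptor and co-receptor genes 6 could be tested, and 1 rose and 1 fell (median 0.07). Acvr1, untested with 24 reads in total, may have lost reads as ambiguous, as may Bmp4, so no level is read for it. Bmpr1a, a type I receptor, was 1.15-fold higher (edgeR adjusted p = 0.0048). The co-receptor gene Hjv had 2 reads with dTAG and 11 in DMSO, so that the ratio was 0.185 (exact 95% interval 0.0199 to 0.848, for counting error only; edgeR adjusted p = 0.049).

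Inside the cell, of 10 genes for SMADs and their inhibitors 8 could be tested, and 1 rose and 2 fell with dTAG (median log2 fold change -0.08). The untested Smad5 and Smurf1 had 4 and 21 reads in total. Their reads may have been set aside as ambiguous, so no level is read for them. Smad7, an inhibitory SMAD, was at 203 ± 9.30 CPM with dTAG and 152 ± 4.19 CPM in DMSO, 1.34-fold higher (edgeR adjusted p = 4.2e-06). Smad1, a receptor-activated SMAD, was 1.32-fold lower (edgeR adjusted p = 0.0020). Of 18 secreted antagonists and modulators 9 could be tested, and 3 rose and 3 fell. Their median of 0.00 becomes 0.74 once groups at 0 reads are set to 3 reads and a gene without reads in both groups is left out. That value lies midway between Twsg1 and Nbl1, neither of which passed. Nbl1 rests on 6 reads with dTAG and 2 in DMSO (ratio 3.05, exact 95% interval 0.546 to 30.9, edgeR adjusted p = 0.25). The median of 0.74 thus says little about the antagonists and modulators as a group. Fstl1, which encodes a follistatin-like protein, was 2.60-fold lower (edgeR adjusted p = 8.5e-09) and Fstl3, another, 4.56-fold higher (edgeR adjusted p = 1.6e-07). Among the 3 that rose, Sost passed the filter only through the dTAG libraries, so a rise was built into its being tested. Among the 3 that fell, Fst had 0 reads with dTAG and 8 in DMSO. Of 20 BMP target genes 15 could be tested, 7 of them described above, and 7 rose and 2 fell (median 0.42). Dusp9, an ERK phosphatase gene, was at 245 ± 8.43 CPM with dTAG and 78.3 ± 2.25 CPM in DMSO, 3.14-fold higher (edgeR adjusted p = 1.3e-16).

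Without LIF the counts are to be read against 34.0% of all tested genes that rose and 34.4% that fell. Of the 5 ligand genes 3 rose and 2 fell (median log2 fold change 1.92, beside -0.02 over all tested genes). Of those 3, Bmp8b and Bmp2 passed the filter only through the libraries without LIF, so a rise was built into their being tested. Bmp8b was 24.9-fold higher (edgeR adjusted p = 1.1e-13), although reads could be split with its near-identical neighbour Bmp8a, which had no reads. Bmp2 had 34 reads without LIF and 3 with LIF, so that the ratio was 11.8 (exact 95% interval 3.71 to 60.0; edgeR adjusted p = 2.6e-05). Of the 6 receptor genes 4 rose and 1 fell (median 0.55), Bmpr1a by 1.66-fold upward (edgeR adjusted p = 5.1e-12) and the co-receptor gene Rgma by 4.52-fold downward (edgeR adjusted p = 1.1e-14). Among the 4, Hjv had 61 reads without LIF and 22 with LIF. It too passed the filter only through the libraries without LIF. Of the 8 SMAD genes 5 rose and 2 fell, Smad6 and Smad9 (median 0.46). Smad7 was 1.87-fold higher (edgeR adjusted p = 3.4e-12), and Smad9, a receptor-activated SMAD, was at 0.554 ± 0.180 CPM without LIF and 8.42 ± 0.0585 CPM with LIF, 15.6-fold lower (edgeR adjusted p = 9.4e-11).

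Of the 9 antagonists and modulators 6 rose and 3 did not pass without LIF, where 34.0% of all tested genes rose (median log2 fold change 1.37), Fstl1 by 2.58-fold (edgeR adjusted p = 4.3e-15) and Fstl3 by 6.2-fold (edgeR adjusted p = 7.2e-10). Among those 6, Chrdl1 had 51 reads without LIF and 0 with LIF, and Nbl1 had 86 and 12. Both passed the filter only through the libraries without LIF, so a rise was built into their being tested. Of the 15 target genes 9 rose and 3 fell, beside 34.0% and 34.4% of all tested genes (median 0.90), with Dusp9 5.47-fold higher (edgeR adjusted p = 7.8e-21). Among the 9, Zfp423 had 204 reads without LIF and 3 with LIF, and Hand1 had 416 and 7. Zfp423 and Hand1 also passed the filter only through the libraries without LIF, so a rise was built into their being tested. Of the E proteins that ID proteins bind, only Tcf4 could be tested. It has 6 accessions, and its log2 fold change was 0.98 with dTAG (SE 0.42, edgeR adjusted p = 0.065) and -0.09 without LIF (SE 0.49, edgeR adjusted p = 0.88). Tcf3 had no reads and Tcf12 had 3, with 8 and 5 accessions, so their levels were not measured.

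**Figure D4:**
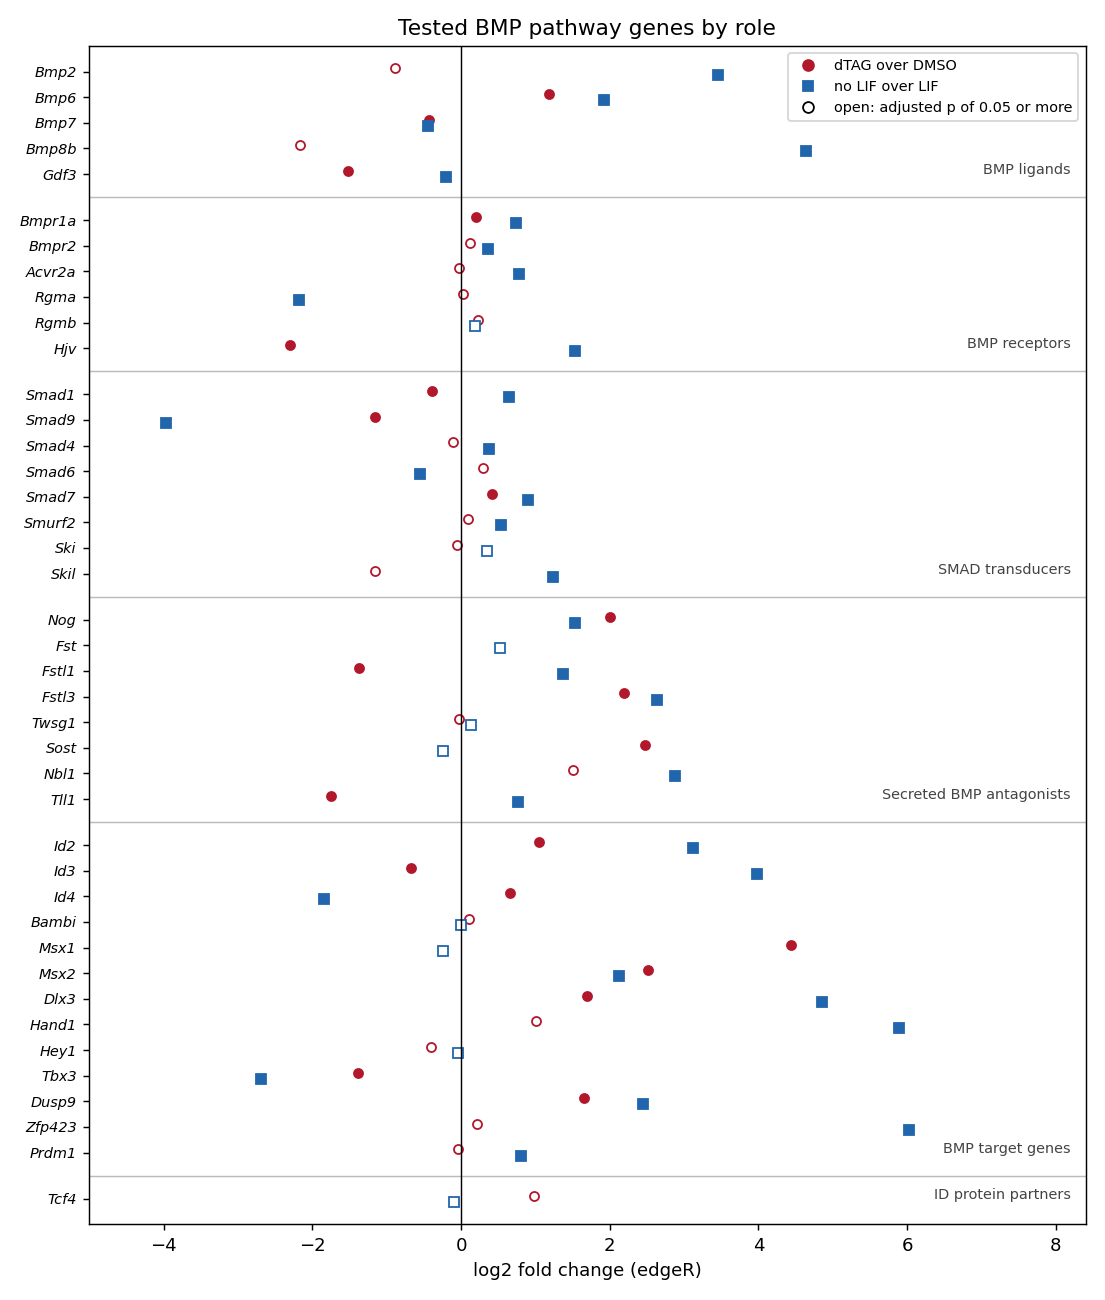
edgeR log2 fold changes of the tested pathway genes, grouped by role, for dTAG over DMSO (circles) and no LIF over LIF (squares); open symbols did not pass an adjusted p of 0.05, and a value is left out where a group had no reads. Most ligand, receptor and target genes lie further right without LIF than with dTAG, and Msx1 lies further right with dTAG.

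In the direct comparison of the 2 responses, Gdf3 (-1.32, edgeR adjusted p = 5.6e-13), Smad1 (-1.04, edgeR adjusted p = 1.5e-07) and Fstl1 (-2.75, edgeR adjusted p = 5.6e-14) had negative differences and Rgma a positive one (2.20, edgeR adjusted p = 7.0e-12). The differences were also negative for Bmp8b (-6.80), Bmpr1a (-0.54), Smad4 (-0.49) and Tll1, a chordin-cleaving protease gene (-2.52), with edgeR adjusted p of 1.6e-06, 1.8e-06, 3.9e-05 and 0.00030 in that order. In that test 3 of 5 ligand genes, 3 of 6 receptor genes, 5 of 8 SMAD genes, 3 of 9 antagonists and 8 of 15 targets passed with a negative difference, where 26.4% of all tested genes did. These counts include Bmp8b, Bmp2, Hjv, Fst, Hand1 and Zfp423, which passed the filter only through the libraries without LIF. Fst had 0 reads with dTAG and 8 in DMSO, so its negative difference rests on an empty group. With a positive difference 1 receptor gene, 2 SMAD genes (Smad6 and Smad9), 1 antagonist (Sost) and 3 targets passed, where 28.6% of all tested genes did. Sost passed the filter only through the dTAG libraries. The tagged line in DMSO also differed from the parental line with LIF in parts of the pathway. Fstl1 was 4.38-fold lower in the tagged line (edgeR adjusted p = 2.6e-15) and Smad9 3.99-fold lower (edgeR adjusted p = 7.8e-07). Smad7 was 1.67-fold higher (edgeR adjusted p = 2.0e-09) and Gdf3 1.46-fold higher (edgeR adjusted p = 3.2e-08). Tll1 was 4.66-fold lower (edgeR adjusted p = 4.2e-07) and Bmp7 1.70-fold lower (edgeR adjusted p = 1.4e-05).

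Markers of other cell types moved in the same comparisons. Over all tested genes 20.1% rose and 20.3% fell with dTAG, and 34.0% rose and 34.4% fell without LIF, and the counts of markers in each list stand beside those shares. Of 8 tested trophoblast markers 5 rose and 3 did not pass with dTAG, and their sum over 10 listed genes was 281 and 262 CPM with dTAG, against 61.8 and 64.1 CPM in DMSO. Without LIF 7 rose and 1 fell, with sums of 1507 and 1400 CPM, against 27.5 and 27.1 CPM with LIF; Gata3 had no reads. Hand1 is on both this list and that of BMP targets, and it passed the filter only through the libraries without LIF. Formative and primed markers summed to 61.7 and 54.9 CPM with dTAG, against 23.4 and 27.9 CPM in DMSO, and to 699 and 678 CPM without LIF, against 45.3 and 46.6 CPM with LIF. All 5 tested rose without LIF, and with dTAG 1 rose and 1 fell. Among the 5, Fgf5 passed the filter only through the libraries without LIF, so a rise was built into its being tested.

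Fibroblast and smooth muscle markers summed to 911 and 869 CPM without LIF, against 11.6 and 11.5 CPM with LIF, and 5 of 6 tested rose; Dcn had no reads. With dTAG they summed to 22.2 and 17.7 CPM, against 25.8 and 25.2 CPM in DMSO, and 1 rose and 1 fell. Among the 5 that rose without LIF, Col3a1 passed the filter only through the libraries without LIF. Of the 3 tested mesoderm markers 2 rose and 1 fell without LIF, with sums of 31.5 and 33.5 CPM, against 6.88 and 7.64 CPM with LIF. With dTAG their sums were 4.15 and 4.54 CPM, against 9.96 and 7.38 CPM in DMSO, and 1 fell. Of 7 primitive endoderm markers only Gata6 and Sox7 could be tested, with Gata4 and Foxa2 at 0 reads. The sums were 20.9 and 17.1 CPM with dTAG, against 0.421 and 1.14 CPM in DMSO. There Gata6 rose 30.9-fold (edgeR adjusted p = 3.5e-13), while Sox7 did not pass (log2 fold change -4.11, edgeR adjusted p = 0.062). Both rose without LIF (sums of 5.12 and 5.72 CPM, against 1.85 and 1.76 CPM with LIF), and Sox7 passed the filter only through the libraries without LIF. Neural markers summed to 321 and 317 CPM with dTAG, against 319 and 324 CPM in DMSO, and to 321 and 355 CPM without LIF, against 300 and 258 CPM with LIF; Pax6 had no reads. Of the 3 tested, 1 rose and 2 fell with dTAG, and 2 rose and 1 fell without LIF. The like sums with dTAG and in DMSO hide a 10-fold fall of Sox1 with dTAG (edgeR adjusted p = 2.6e-06). Nes was 1.23-fold lower and Tubb3 1.2-fold higher with dTAG. Marker sums in bulk RNA do not show that cells of these types were present. The part of any such cells in the changes of the ID and MSX genes was not tested. In bulk RNA, fewer cells of a type and less RNA per cell cannot be told apart.

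Genes of like pattern were sought by Pearson's r of log2(CPM + 1) over the 8 libraries, among 7049 genes with a mean of at least 5 CPM. The points share 4 groups, and r ignores the size of a change. The pair nearest to each member was Pgrmc1 and Prkar2b for Id2 (r = 0.996 and 0.995), Diablo and Sf3b4 for Id3 (0.988 and 0.986), and Plpp3 and Misp for Id4 (both 0.997). The pair was Arfgef1 and Pgap1 for Msx1 (0.991 and 0.988) and Top2b and Tmprss2 for Msx2 (0.997 and 0.993). For Smad6 it was Dnajb14 and Gstm6 (0.934 and 0.924), and for Bambi, whose level hardly varied, Slc15a2 and G6pc3 (0.873 and 0.854). None of the nearest genes of one member was another member. Among the members, r was highest for Id2 with Msx2 (0.72) and lowest for Id2 with Id4 (-0.79).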

How the data were processed

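RNA-seq counts of 8 libraries, 2 for each of 4 groups, were used. The values are raw read counts, as deposited by the authors, for 41565 RefSeq accessions; poly(A)-selected libraries were made with a stranded kit and read for 40 bases from one end, per the labels' protocols. HISAT2, HTSeq and mm9 are named per the submitters' processing notes; versions and the strand and overlap settings are not given in the sources used here. HTSeq's summary lines stayed out of library sizes and tests; reads without a feature were 10.4% to 14.9% of uniquely aligned reads. Accessions were named through RefSeq (41325) or GENCODE (126) tables of GRCm38, 114 had no symbol, and counts were summed per symbol. The depth, 7221451 to 11447468 counted reads, leaves few reads for the lowest genes; intervals cover counting error only.

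Counts were tested in edgeR 4.0.16 (R 4.3.3) with TMM, filterByExpr and glmQLFTest, in 1 fit with 4 residual degrees of freedom; standard errors are the log2 fold change over the square root of F. The biological coefficient of variation was 4.43%. The script was tested on simulated data. No 2 replicates were alike within sampling noise (chi-square per degree of freedom 1.81 to 4.80). All 9 genes are named, and, per pathway list and comparison, up to 2 genes of smallest adjusted p; other genes named, such as Pou5f1 and Tcf3, were chosen after their values were seen. The members and lists were chosen with earlier results of these data known. Alternatives were RLE scaling, DESeq2 1.42.0, other filters, a replicate block, fewer libraries, single accessions and leaving out each library.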

Additional observations from a re-analysis of the deposited data

How the results depend on the processing

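Of 28 results for single members, 18 passed in the planned fit, and 15 of these passed under each of up to 16 alternatives. The other 3 were Smad6 without LIF and Smad6 and Msx1 between the control groups. Members called lower without LIF numbered 1 to 2 when single libraries were left out. Members called lower in the tagged line in DMSO numbered 0 with DESeq2, 1 with no filter, with each accession alone and with the compared libraries only, and 0 to 2 when single libraries were left out. Genes called lower in that comparison numbered 2283, or 1409 with DESeq2 and 1462 to 2226 when single libraries were left out.

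Signs turned only where no call was made. Without LIF, Bambi was at 0.0389 with RLE size factors, 0.0409 with DESeq2 and -0.0192 to 0.0328 without single libraries. Between the control groups, Id2 was at 0.0205 with RLE, 0.024 with DESeq2, 0.0282 with no filter, 0.0238 with each accession alone, 0.0147 with 1-accession genes and 0.0253 with the compared libraries only. Msx2 was at 0.00095 with RLE, 0.0194 with DESeq2, 0.0084 with no filter, 0.00224 with a replicate block, 0.00425 with each accession alone and 0.0113 with the compared libraries only. Without single libraries Id2 ran from -0.00674 to 0.0635, Msx2 from -0.16 to 0.24, Id4 from -0.0288 to 0.29 and Bambi from -0.10 to 0.0139. The cause was not tested. Where a group kept 1 library, it was assumed to vary like the others.

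The replicate numbers were not shown to pair the libraries (correlations of replicate differences from -0.01 to 0.05). With a replicate block the genes called were 4214 with dTAG and 7082 without LIF, against 4175 and 7056, and no member's call changed.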
